A study of Mus musculus with 9 samples.

Results

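miR-451a, both arms of miR-144 and the 4 rows of miR-486 are the miRNAs best known from red blood cells, and their counts were followed through 9 small RNA libraries of mouse liver exosomes. The 7 members (mmu-miR-451a, mmu-miR-144-3p, mmu-miR-144-5p, mmu-miR-486a-5p, mmu-miR-486b-5p, mmu-miR-486a-3p and mmu-miR-486b-3p, written below without the species prefix) were taken by name from the 722 entries of the deposited table. Exosomes are small vesicles that cells release, and the libraries asked how a steatohepatitis diet and loss of Hsp90β (gene Hsp90ab1) in hepatocytes alter the miRNAs they carry. The samples form 3 groups of 3 mice: Hsp90β flox mice on chow (flox chow), Hsp90β flox mice on the HFFC diet, which is rich in fat, fructose and cholesterol (flox HFFC), and Hsp90β KO mice on the HFFC diet (KO HFFC). All 9 mice carry the floxed allele. In the KO mice Cre recombinase is driven by the Albumin promoter, so the deletion is aimed at hepatocytes and not at red cell precursors. The gene in those precursors was not examined here. No KO mice on chow were among the samples. Per the study's methods, the vesicles were pelleted from medium in which cut liver had been digested with collagenase, so vesicles and contents of blood held in the tissue can enter the preparation together with those of liver cells. Hsp90ab1 mRNA is not measured in a small RNA library, so the genotype labels could not be checked here.

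The genes of miR-144 and miR-451a lie side by side and are transcribed together under the erythroid factor GATA1 as red cell precursors mature. miR-144 is cut from its hairpin by Drosha and Dicer, whereas the hairpin of miR-451a is too short for Dicer and is sliced by Ago2, the protein that then carries it. miR-486a is made from an intron of Ank1, the gene of ankyrin-1 in the red cell membrane skeleton, and miR-486 is also known from skeletal muscle. Mature red cells have no nucleus but keep these miRNAs, and miR-451a is widely used as a sign of red cell content in plasma.

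The mature sequences of miR-451a and both miR-144 arms are shown so that their seeds can be compared with those of other miRNAs. They are from RefSeq on GRCm38.p6, 5′ to 3′, with the seed, bases 2 to 8, in capitals.
miR-451a: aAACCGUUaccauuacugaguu
miR-144-3p: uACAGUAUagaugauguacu
miR-144-5p: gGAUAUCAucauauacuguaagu
miR-101a-3p: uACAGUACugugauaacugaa
None of the 1679 mature sequences in the reference shares a whole seed with any of these 3 members. Seeds do not tell whether reads of another miRNA could be counted for a member, and this was not checked. The nearest relative by seed is miR-101a-3p, a miRNA of chromosome 4 shown for comparison, which has bases 2 to 7 in common with miR-144-3p and differs from it at base 8, the last of the seed. The 4 miR-486 rows had no entry in the sequence table, so 3 of 7 members were matched.

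The hairpins are shown because the members are cut from them in different ways, with the mature miRNAs in capitals.
Mir451a: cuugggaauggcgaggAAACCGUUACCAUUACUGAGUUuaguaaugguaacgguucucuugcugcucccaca
Mir144: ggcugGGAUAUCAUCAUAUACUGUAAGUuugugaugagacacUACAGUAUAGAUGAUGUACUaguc
Mature miR-451a covers bases 17 to 38 of its 72-base hairpin, so it runs past the middle of the hairpin, whereas the miR-144 arms, at bases 6 to 28 and 43 to 62 of 66, lie on either side of the loop.

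Mature miR-451a lies at chr11:78073186-78073207 on the plus strand of GRCm38, miR-144-3p at chr11:78073047-78073066 and miR-144-5p at chr11:78073010-78073032. Their hairpins are separated by 99 bases, and the annotation places both between protein-coding genes, the nearest being Eral1 at 135 bases. Mir451b is annotated on the opposite strand at the position of Mir451a, and its miRNA had no entry in the deposited table. The hairpin of miR-486a (Mir486, chr8:23142555-23142682, plus strand) overlaps that of miR-486b (Mir3107, chr8:23142573-23142662, minus strand), and both fall in introns of Ank1. Ank1 itself is on the plus strand, so Mir3107 lies opposite to it, on the strand of the antisense gene Gm15816. The mature forms of miR-486a and miR-486b are regarded as near-identical or the same, which was not checked here for lack of the sequences. Reads of miR-486 may therefore be given to either row, and each row is uncertain by itself.

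The libraries held 218256 to 681286 counts over all miRNA entries. These were 0.849% to 2.61% of the tags of the library, a number inferred from the deposited counts and reads per 1000000. At such depths 3 counts, the limit that a count of 0 allows, correspond to 4.40 to 13.7 CPM (counts per 1000000 miRNA counts of the library). Such limits and all intervals on counts cover counting error only. Hepatocyte miRNAs (miR-122, miR-192, miR-194 and miR-802) made up 23.4% to 41.1% of miRNA counts. A list of 5 leukocyte and platelet miRNAs (miR-223-3p, miR-142a-3p, miR-142a-5p, miR-150-5p and miR-155-5p) made up 0.0651% to 0.107%. That sum leaves out other miRNAs made in such cells, so it is not their whole share. One library stood apart: flox chow replicate 3 had 1029 counts of the muscle miRNA miR-1a-3p, against 25 to 64 in the other 8, and its muscle miRNAs summed to 0.604% of its counts, against 0.00734% to 0.0280% elsewhere.

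miR-451a was found in every library and was by far the most abundant member. In lists of values the replicates stand in the order 1 to 3, with flox chow given as on chow, flox HFFC as on HFFC and KO HFFC as the KO. miR-451a had 2734, 8100 and 1071 counts on chow, 2509, 4558 and 2680 counts on HFFC and 2556, 2813 and 2411 counts in the KO. As shares of all miRNA counts these were 0.563%, 1.19% and 0.491% on chow, 0.854%, 0.754% and 0.664% on HFFC, and 0.605%, 0.615% and 0.786% in the KO. The highest and the lowest share were both in flox chow, 2.42-fold apart, and the HFFC and KO libraries lay between them. Counting error was small beside that spread, with 95% Wilson intervals of 1.16% to 1.21% for the highest share and 0.462% to 0.521% for the lowest. miR-451a ranked 21st to 30th in each library and 25th over all counts.

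Group means of the miR-451a share were 0.757% ± 0.0952 (SD, n = 3) for flox HFFC, 0.748% ± 0.384 for flox chow and 0.668% ± 0.102 for KO HFFC. Neighbours in this order did not differ beyond their spread, since the ranges of all 3 groups overlap. In bulk vesicle RNA, fewer red cells and less miR-451a per red cell or vesicle cannot be told apart.

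The miR-144 arms come from the same primary transcript as miR-451a and were far scarcer. miR-144-3p, the arm usually regarded as the active strand, had 15, 74 and 4 counts on chow, 5, 18 and 31 on HFFC, and 11, 10 and 6 in the KO. miR-144-5p had 28, 48 and 3, then 7, 33 and 20, then 19, 24 and 2. In each group 1 library had under 10 counts of both arms (replicate 3 on chow, 1 on HFFC and 3 in the KO), and no group stood apart for either arm. Each of these was the library of its group with the fewest miRNA counts, at 218256, 293708 and 306626. On the CPM scale miR-451a, miR-144-3p and miR-144-5p each had their highest value in flox chow replicate 2, at 11889, 108.6 and 70.5.

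Neither arm of miR-144 dominated. Over all libraries miR-144-3p took 174 of 358 counts of the pair, or 48.6%, with library values from 29.4% to 75.0%, and it exceeded miR-144-5p in 4 of 9 libraries. miR-451a counts were 52.5 to 301 times the summed miR-144 counts. These are ratios of counts of different sequences, which a small RNA library does not capture equally, so they are not ratios of molecules.

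**Figure D1:**
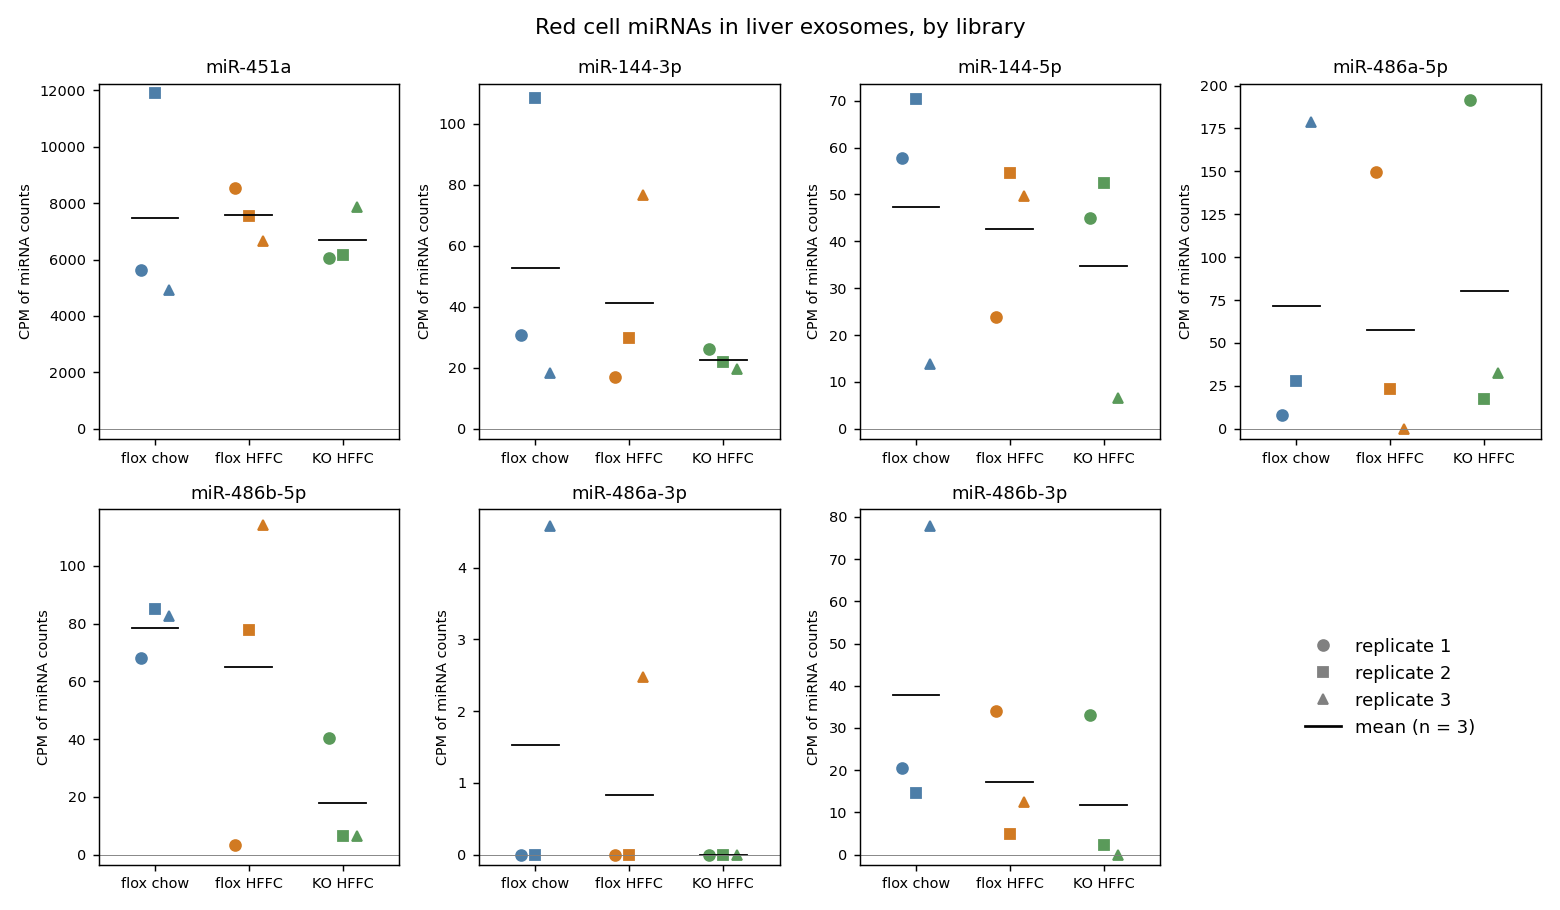
CPM of each of the 7 members (y axes, linear, a scale of its own in each panel) in the 3 groups (x axis). Points are single libraries, with the marker giving the replicate number, and the line is the group mean. miR-451a spans 4907 to 11889 and the groups overlap for all members but miR-486b-5p, whose KO HFFC points all lie below the flox chow points.

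miR-486 was as scarce as miR-144, and its counts were divided between the paired rows differently from library to library. miR-486a-5p had 4, 19 and 39 counts on chow, 44, 14 and 0 on HFFC and 81, 8 and 10 in the KO. miR-486b-5p had 33, 58 and 18, then 1, 47 and 46, then 17, 3 and 2. In flox HFFC, replicate 1 was nearly all miR-486a-5p and replicate 3 had none of it.

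Of the counts of both 5p rows, miR-486a-5p took 10.8%, 24.7% and 68.4% on chow, 97.8%, 22.95% and 0% on HFFC and 82.7%, 72.7% and 83.3% in the KO. Exact 95% intervals were 88.2% to 99.9% for flox HFFC replicate 1 and 0% to 7.71% for flox HFFC replicate 3, so libraries of 1 group differed by more than counting error. Over all 9 libraries the split was 219 of 444, or 49.3%. The sources used here do not say how a read matching both rows was assigned, and the part of that step in these splits was not tested.

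Summed over both rows, miR-486-5p had 37, 77 and 57 counts on chow, 45, 61 and 46 on HFFC and 98, 11 and 12 in the KO. In CPM these were 76.2, 113.0 and 261.2, then 153.2, 100.9 and 114.0, then 231.8, 24.0 and 39.1. The highest value was in flox chow replicate 3, the library with the muscle miRNAs, and the next in KO HFFC replicate 1, where miR-1a-3p had only 25 counts. KO HFFC held both a library near the top and the pair at the bottom, so its range contained that of flox HFFC and overlapped that of flox chow.

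The passenger arms added little. miR-486b-3p had 10, 10 and 17 counts on chow, 10, 3 and 5 on HFFC and 14, 1 and 0 in the KO. miR-486a-3p had 1 count in flox chow replicate 3, 1 in flox HFFC replicate 3 and 0 in the other 7 libraries, which is under the limit that a count of 0 allows. Of the counts of both 3p rows, miR-486a-3p took 2 of 72.

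**Figure D2:**
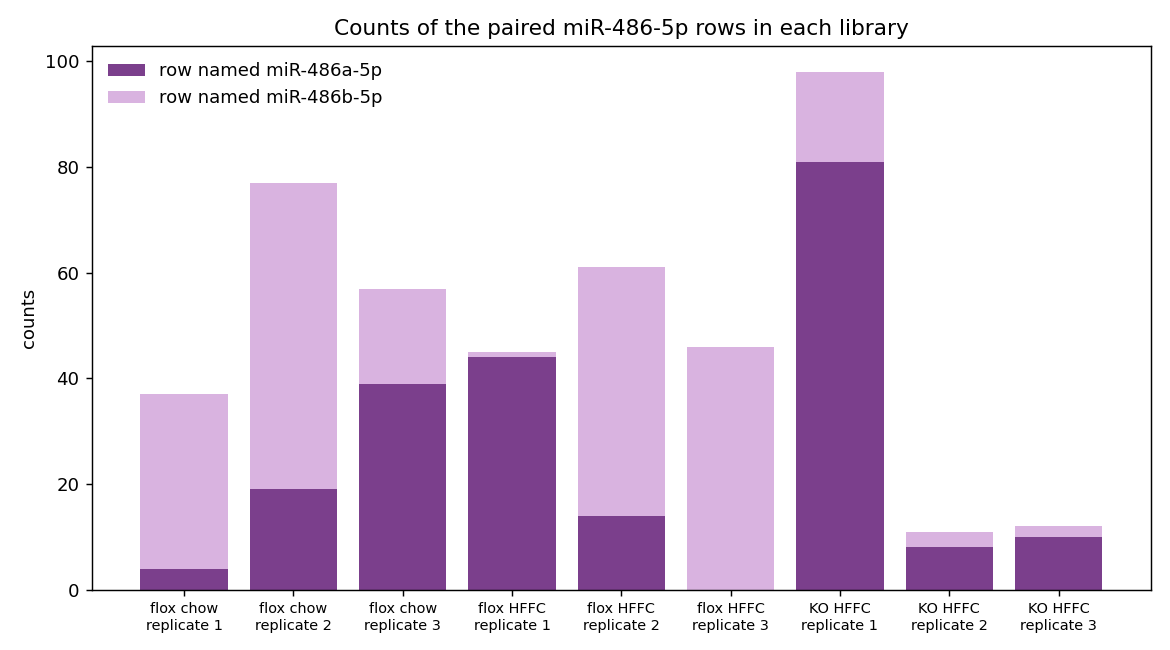
Stacked counts (y axis) of the rows named miR-486a-5p (dark) and miR-486b-5p (light) in each of the 9 libraries (x axis). The sums run from 11 to 98, and the dark share from 0% in flox HFFC replicate 3 to 97.8% in flox HFFC replicate 1.

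All 7 members together made up 0.582%, 1.22% and 0.528% of miRNA counts on chow, 0.877%, 0.773% and 0.690% on HFFC and 0.638%, 0.625% and 0.793% in the KO. Most of this sum was miR-451a, which supplied 92.9% to 99.2% of it, while the other 6 members had 20 to 209 counts a library. The group means were 0.777% ± 0.385, 0.780% ± 0.0938 and 0.685% ± 0.0934 (SD, n = 3 each), and the ranges overlapped in every comparison.

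Differences between groups were tested with edgeR's quasi-likelihood test on the 248 entries that passed the low-count filter, with Benjamini-Hochberg adjustment over all of them. Of the 7 members 6 passed, and miR-486a-3p did not. The 3 comparisons share libraries, so their values are not independent of each other. Between mice of a group the typical spread of an entry was wide (biological coefficient of variation 55.0%).

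The diet was asked about by comparing flox HFFC with flox chow. No member was called, and over all entries 0% were called at an adjusted p under 0.05, with 4.44% (11 entries) under 0.05 before adjustment and 0 called by DESeq2. miR-451a had a TMM-scaled CPM of 8066 ± 1513 on HFFC and 7660 ± 2846 on chow (SD of 3 libraries), a log2 fold change of 0.07 ± 0.31 (SE, edgeR adjusted p = 0.985) with a 95% interval of -0.53 to 0.68. The interval bounds a diet difference in miR-451a more tightly than in any other member. The log2 fold changes of miR-144-3p and miR-144-5p were -0.33 ± 0.71 and -0.13 ± 0.74, those of miR-486a-5p and miR-486b-5p -0.36 ± 1.59 and -0.30 ± 0.90, and that of miR-486b-3p -1.21 ± 1.26, all with an edgeR adjusted p of 0.985. Of the 6 members 5 were below 0, beside 51.6% of all entries, with a median of -0.32 beside -0.02. For each of them the groups overlapped, as they did for all but 8.47% of entries.

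The effect of the hepatocyte deletion was asked about by comparing KO HFFC with flox HFFC. Again no member was called, with 0% called over all entries, 8.06% (20 entries) under 0.05 before adjustment and 5 called by DESeq2, none of them a member. miR-451a had a TMM-scaled CPM of 6006 ± 1043 in the KO against 8066 ± 1513 in flox HFFC, a log2 fold change of -0.43 ± 0.31 (edgeR adjusted p = 0.750) with an interval of -1.03 to 0.18. miR-486b-5p had the largest difference of the members, -2.03 ± 0.97 (edgeR adjusted p = 0.616), but the paired row miR-486a-5p went the other way at 0.26 ± 1.55 (adjusted p = 0.954). With both rows summed the log2 fold change was -0.64 ± 0.85 (edgeR adjusted p = 0.901), and leaving out single libraries moved it either way. It was -2.26 without KO HFFC replicate 1 (edgeR adjusted p = 0.209), but -0.15 without KO HFFC replicate 2, -0.23 without KO HFFC replicate 3 and -0.29 without flox HFFC replicate 1.

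miR-144-3p differed by -1.06 ± 0.75 between KO HFFC and flox HFFC (edgeR adjusted p = 0.750) and miR-144-5p by -0.53 ± 0.75 (adjusted p = 0.910). miR-486b-3p differed by -0.64 ± 1.30 (adjusted p = 0.954). Below 0 were 5 of the 6 members, beside 51.6% of all entries, and their median was -0.58 beside -0.03. The groups overlapped for every member, while 14.1% of all entries did not overlap.

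Against flox chow, the KO HFFC libraries differ in both diet and genotype, and the effects of these cannot be told apart there. miR-486b-5p was the one member whose groups did not overlap, with a TMM-scaled CPM of 84.1 ± 15.6 for flox chow and 16.2 ± 18.1 for KO HFFC and a log2 fold change of -2.33 ± 0.98 (edgeR adjusted p = 0.345). Among all entries 17.7% did not overlap in this comparison, and 9.68% were lower without overlap. It was also the only member among the 12.9% of entries (32) under 0.05 before adjustment. With the miR-486a-5p row added the log2 fold change was -1.07 ± 0.85 (edgeR adjusted p = 0.656). It became -0.04 without flox chow replicate 3, the library with the muscle miRNAs, -0.58 and -0.66 without KO HFFC replicate 2 or 3, and -2.76 (edgeR adjusted p = 0.126) without KO HFFC replicate 1.

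miR-451a differed by -0.35 ± 0.31 between KO HFFC and flox chow (edgeR adjusted p = 0.751). miR-144-3p differed by -1.40 ± 0.74 (adjusted p = 0.509), miR-144-5p by -0.65 ± 0.75 (adjusted p = 0.838), miR-486a-5p by -0.10 ± 1.57 (adjusted p = 0.971) and miR-486b-3p by -1.85 ± 1.28 (adjusted p = 0.654). All 6 tested members were below 0, beside 52.4% of all entries, with a median of -1.03 beside -0.05. No member passed the adjusted threshold, 0% of all entries did so in edgeR, and the 6 entries that DESeq2 called included no member. The members are not independent of each other, since miR-451a and both miR-144 arms share a transcript and reads of miR-486 may fall to either of its rows.

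**Figure D3:**
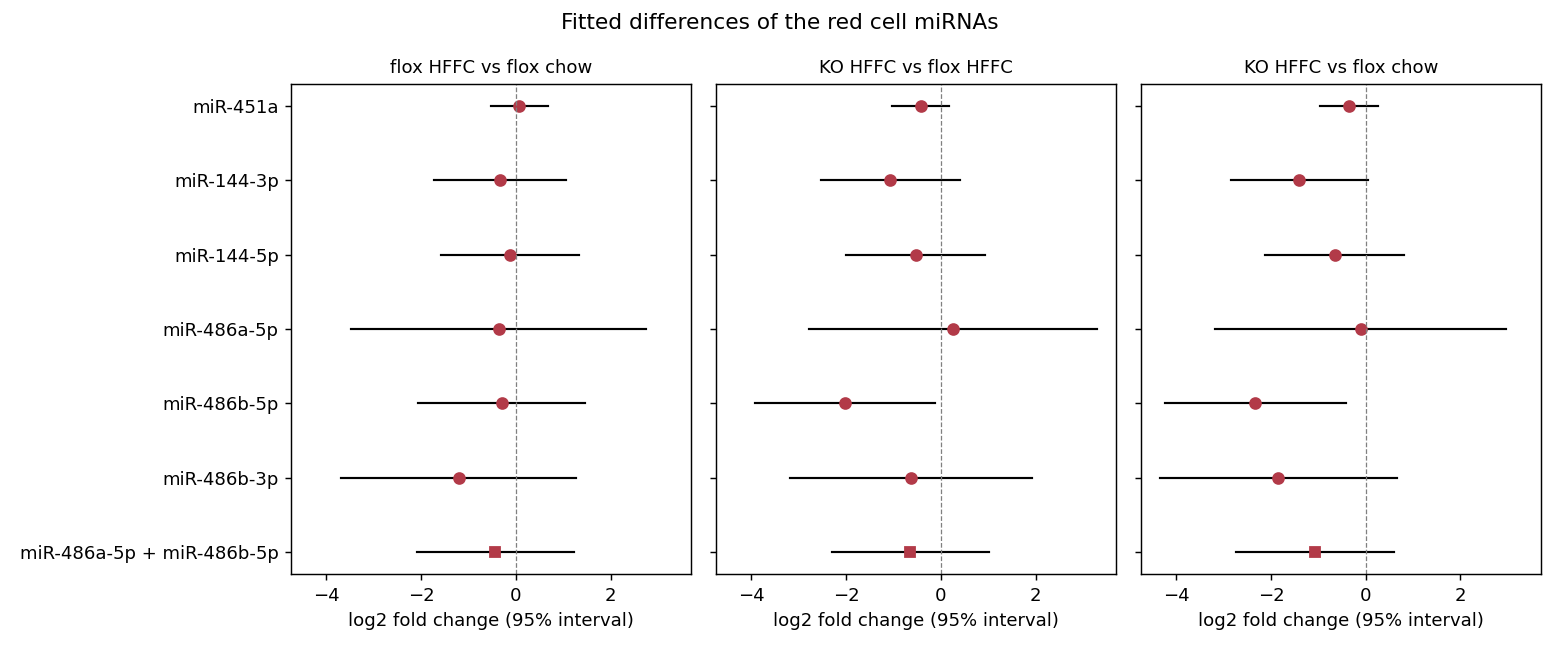
log2 fold changes (x axis) of the 6 tested members and of the summed miR-486-5p rows (square) in the 3 comparisons, with 95% intervals as bars. The intervals of miR-451a are the narrowest, and those of miR-486b-5p lie below 0 in both comparisons with KO HFFC, though neither passed the adjusted threshold. For miR-486b-5p in KO HFFC against flox HFFC the edgeR p was 0.0596 even before adjustment. The intervals drawn are narrower than the F test implies.

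Other miRNAs abundant in red cells gave values on both sides of 0. Of a list of 12, 11 were in the table (all but miR-451b) and 9 were tested, miR-363-3p and miR-20b-5p having too few counts (11 and 10 in all). None was called in any comparison, their medians were -0.03 for HFFC against chow, -0.04 for KO HFFC against flox HFFC and -0.01 for KO HFFC against flox chow, and 3, 4 and 4 of the 9 were above 0. Many of these miRNAs are made in most cell types, so the list is a weak sign of red cells.

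miR-16-5p, a cell cycle regulator abundant in red cells and elsewhere, was more abundant than miR-451a by 1.42 to 8.69 times in every library. It was lower in each flox HFFC library than in each flox chow library, with a log2 fold change of -1.06 ± 0.36 (edgeR adjusted p = 0.917), where 3.63% of all entries were lower without overlap. Its TMM-scaled CPM was 22062, 21440 and 52629 on chow. The flox chow mean was thus raised by replicate 3, the library with the muscle miRNAs, and it enters both comparisons with flox chow. The log2 fold change of miR-16-5p was 0.24 ± 0.36 between KO HFFC and flox HFFC and -0.82 ± 0.36 (adjusted p = 0.361) between KO HFFC and flox chow. miR-92a-3p, of the miR-17-92 cluster, was lower without overlap in KO HFFC than in flox HFFC (-0.57 ± 0.37, edgeR adjusted p = 0.689) and than in flox chow (-0.59 ± 0.37, adjusted p = 0.612), where 7.26% and 9.68% of entries did the same. miR-15a-5p, made from the same transcript as one copy of miR-16, was lower without overlap in KO HFFC than in flox chow alone (-0.60 ± 0.38, edgeR adjusted p = 0.612). The remaining 6 (miR-15b-5p, miR-25-3p, miR-93-5p, miR-106b-5p, miR-107-3p and miR-185-5p) overlapped between groups in all 3 comparisons, with log2 fold changes from -0.61 for miR-107-3p in KO HFFC against flox chow to 0.60 for miR-106b-5p in KO HFFC against flox HFFC.

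The ratio of miR-451a to miR-23a-3p, a miRNA little affected by red cells, is a common index of haemolysis in plasma and serum. Here miR-451a exceeded miR-23a-3p in every library, by 1.57 to 4.94 times with a median of 2.48. The mean log2 ratio was 1.75 ± 0.51 on chow, 1.57 ± 0.48 on HFFC and 1.04 ± 0.34 in the KO (SD, n = 3 each). KO HFFC had the lowest mean, but its range of 0.65 to 1.31 overlapped those of flox chow (1.30 to 2.30) and flox HFFC (1.02 to 1.92).

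The order of the groups depended on the reference miRNA. With let-7g-5p as reference the KO mean was higher than in flox HFFC, by 0.36 on the log2 scale, and than in flox chow, by 0.26. let-7g-5p itself was lower in each KO HFFC library than in each flox HFFC library, with a log2 fold change of -0.77 ± 0.24 (edgeR adjusted p = 0.232), and had -0.58 ± 0.24 against flox chow (adjusted p = 0.345). The log2 fold changes of miR-23a-3p in KO HFFC were 0.11 ± 0.46 against flox HFFC and 0.37 ± 0.46 against flox chow, with overlapping groups. Against miR-122-5p, the main hepatocyte miRNA, miR-451a was 13.1 to 68.8 times less abundant, and against miR-126a-3p, made in endothelial cells, 4.91 to 10.5 times. Over the 9 libraries the ratio to miR-126a-3p varied 2.13-fold, less than the ratios to miR-23a-3p (3.14-fold), miR-122-5p (5.25-fold) and miR-16-5p (6.11-fold).

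**Figure D4:**
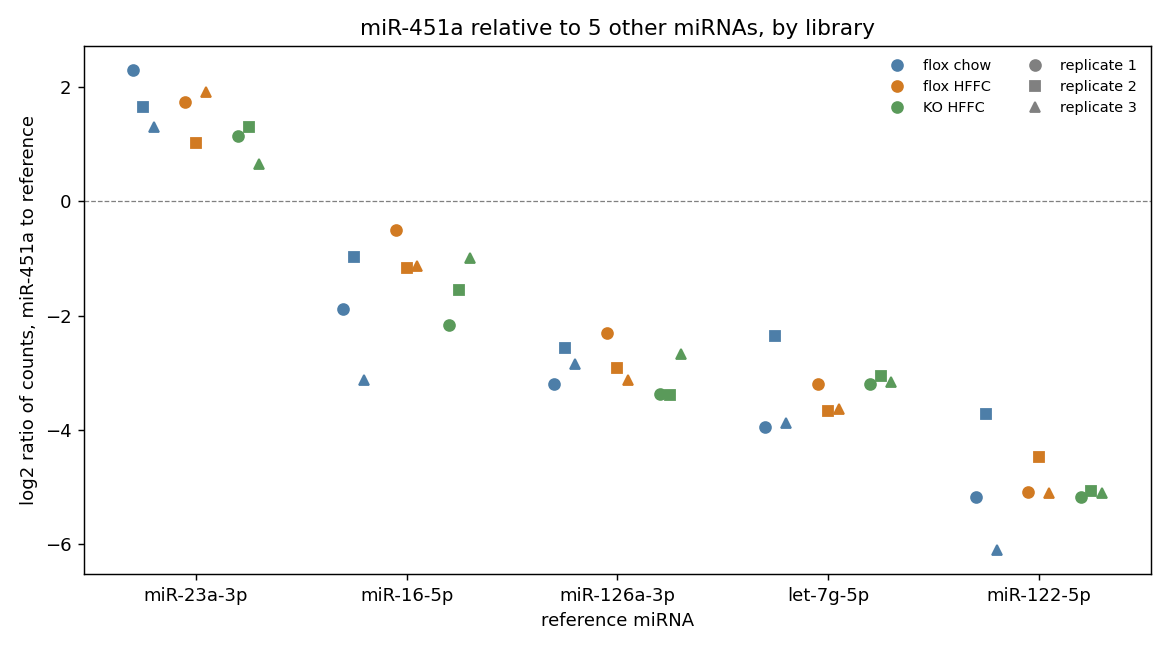
log2 ratio of miR-451a counts to those of 5 reference miRNAs (x axis) in each library, coloured by group and with the marker giving the replicate number. All 9 points lie above 0 for miR-23a-3p and below 0 for the other 4 references, and the point of flox chow replicate 3 is the lowest for miR-16-5p and miR-122-5p.

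Across the 9 libraries the scarcer members did not track miR-451a closely. Their counts were low, at 2 to 74 a library for the miR-144 arms and 0 to 81 for the miR-486-5p rows. Counting error and the uncertain miR-486 row split can lower a correlation, and their part here was not tested. On log2(CPM + 1), TMM-scaled, Pearson's r with miR-451a was 0.43 for miR-144-3p (exact permutation p = 0.239, adjusted over 8 relations 0.960), with Spearman's rho of 0.28 (exact permutation p = 0.463, adjusted 0.926). It was 0.07 for miR-144-5p, 0.11 for miR-486a-5p and -0.02 for miR-486b-5p, with rho of 0.17, 0.10 and 0.10, exact permutation p for r of 0.862, 0.777 and 0.960 and adjusted p of 0.960 for each. Without flox chow replicate 2 and flox HFFC replicate 1, the libraries farthest from the median of miR-451a, r for miR-144-3p was 0.23, and with group means removed it was 0.25. The other 4 relations, with miR-16-5p, miR-122-5p, miR-126a-3p and miR-223-3p (a myeloid miRNA), had r of -0.25, -0.16, 0.21 and 0.23, rho of -0.40, 0.03, 0.22 and 0.18, with permutation p adjusted to 0.960 for each r. Over all 8 relations the exact permutation p for rho was 0.926 to 0.948 after adjustment.

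Of the 247 other tested entries, those most like miR-451a over the 9 libraries were miR-1843a-5p (r = 0.85), miR-26a-5p (0.85), miR-27b-3p (0.81), miR-30b-5p (0.73) and miR-872-3p (0.69). None of these 5 is a member or on the red cell list. Without the same pair of libraries their r was 0.64, 0.61, 0.93, 0.38 and 0.04, so the likeness of miR-872-3p rested on that pair. miR-144-3p ranked 27th by this measure and miR-486b-5p 137th. All points share the scaling of their library, and the r values of these 5 describe entries picked for being high.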

How the data were processed

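The authors deposited 1 table of whole-number counts per miRNA entry, with RPM values (reads per 1000000) scaled to all tags of a library and group means of both. The deposited mean counts, treated as a score, and the mean RPM values were not used. Bowtie2 is named in the submitters' processing notes, and no source used here gives the genome build. The submitters' extraction protocol describes RNA from ground tissue and adapters with molecular identifiers, while the sample titles name hepatic exosomes. The study's methods describe exosomes and a commercial small RNA kit. Which was used could not be settled. No source used here says whether identifiers were collapsed, so counts may hold PCR copies. The 722 entries are 591 with miRBase names and 131 predicted ones. The tags of each library were inferred from its counts and RPM values. Multiplying the RPM values back by them gave the counts to within 0.140, which shows 1 common scale per library but does not check the number of tags. The libraries held 218256 to 681286 counts.

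Counts were tested with edgeR 4.0.16 (quasi-likelihood, TMM, filterByExpr with a minimum count of 10, all 9 libraries in 1 fit, R 4.3.3) and Benjamini-Hochberg adjustment at 0.05 over 248 entries. Standard errors are the log2 fold change over the root of F, and intervals are 1.96 of them either side. With so few libraries such intervals are narrower than the F test implies, so one can exclude 0 where the test does not. Code was tested on simulated data. Alternatives were other scalings and filters, DESeq2 1.42.0, limma-voom (limma 3.58.1), pooled counts with a Poisson test, a replicate block, 6 libraries, libraries left out and miR-486a and miR-486b summed. In the diet comparison deviations of same-numbered libraries had r of 0.12, 0.38 and 0.22, and those of differently numbered ones -0.44 to 0.19. Same-numbered r was -0.04, 0.02 and 0.22 in KO HFFC against flox HFFC and -0.18, -0.13 and 0.18 against flox chow. No label states a pairing, so the main fit has none and the replicate block is an alternative only. Named entries are the 7 members, the red cell list, the ratio references and the 5 entries most like miR-451a. Members and lists were chosen with earlier results of these data known. Sequences and positions are from RefSeq and GENCODE on GRCm38.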

Additional observations from a re-analysis of the deposited data

How the results depend on the processing

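No alternative of edgeR, DESeq2 or limma-voom brought a member past the adjusted threshold. miR-451a in flox HFFC against flox chow, 0.07, became -0.074 with upper-quartile factors, -0.21 with all library tags and -0.20 with pooled counts, and lay between -0.12 and 0.39 with 1 library left out. Pooled counts with a Poisson test, which ignore the spread between mice, passed the threshold for miR-451a (-0.19 for KO HFFC against flox HFFC and -0.39 against flox chow) and miR-144-3p in each comparison, miR-486a-5p and miR-486b-5p in both with KO HFFC, miR-486b-3p in both with flox chow, and miR-144-5p in KO HFFC against flox chow. miR-486a-5p in KO HFFC against flox chow, -0.10, became 0.25 with total miRNA counts, 0.64 with all library tags, 0.79 with limma-voom and 0.89 with pooled counts, and in KO HFFC against flox HFFC -0.64 when summed with miR-486b-5p. With the replicate block miR-144-5p in the diet comparison was 0.14, and the block called 0 entries in each comparison and changed no other call.

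With 1 library left out, log2 fold changes in flox HFFC against flox chow ran from -1.08 to 0.57 (miR-144-3p), -0.46 to 0.14 (miR-144-5p), -2.63 to 1.84 (miR-486a-5p), -1.01 to 0.26 (miR-486b-5p) and -2.19 to 0.026 (miR-486b-3p). In KO HFFC against flox HFFC they ran from -0.61 to -0.29 (miR-451a), -1.43 to -0.35 (miR-144-3p), -0.93 to -0.072 (miR-144-5p), -1.54 to 2.53 (miR-486a-5p), -3.53 to -1.42 (miR-486b-5p) and -3.74 to 0.33 (miR-486b-3p). In KO HFFC against flox chow they ran from -0.60 (without flox chow replicate 1) to -0.055 (without flox chow replicate 2) for miR-451a, -1.72 to -0.54 (miR-144-3p), -1.06 to -0.21 (miR-144-5p), -2.08 to 2.06 (miR-486a-5p), -3.92 to -2.01 (miR-486b-5p) and -5.10 to -0.69 (miR-486b-3p). Entries called in KO HFFC against flox HFFC were 1 with all library tags, 7 with no filter, 5 with DESeq2 and 0 to 5 with a library left out (5 without KO HFFC replicate 1 and 1 without flox chow replicate 3). Against flox chow they were 1 with total miRNA counts, 4 with all library tags, 10 with no filter, 6 with DESeq2 and 0 to 5 (5 without KO HFFC replicate 1). The difference in the log2 ratio of miR-451a to its reference in KO HFFC became 0.36 against flox HFFC with let-7g-5p, and against flox chow -0.11 with miR-122-5p, -0.27 with miR-126a-3p and 0.26 with let-7g-5p. The fits of the summed miR-486 rows without single libraries were chosen after seeing the data. At 1 to 81 counts where present, miR-144 and miR-486 allow only wide intervals.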
